A study of Mus musculus with 6 samples.

Results

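The genes described here are the kinesin superfamily of the mouse, the motor proteins that walk along microtubules or take microtubules apart at their ends, as measured in sorted spermatogonia with and without Ddx20. Members were chosen by name alone. They are the protein-coding genes whose symbol is Kif followed by a number, with or without a further letter and digit, or Kifc followed by a number. In the GENCODE M21 annotation 42 genes met the name rule, 41 of them were among the 22579 genes of the count table, and 38 had at least 30 reads summed over the 6 libraries. Kif12 was the gene not listed. Of the 3 genes listed below the minimum, Kif2b had 18 reads, Kifc1 had 19 and Kif28 had 3. By their known roles the 38 genes were sorted into 12 mitotic kinesins, 15 transport kinesins and 11 other kinesins, which act on cilia, flagella, centrioles or microtubule ends outside the spindle or in more than one place.

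Kinesins use ATP to move along microtubules, most of them towards the plus end. Mitotic kinesins build the spindle, move and align chromosomes and organise the midzone where the daughter cells part, and many of them are made mainly in cells that approach division. Transport kinesins carry vesicles, organelles and ciliary cargo at all stages of the cell cycle. In the testis, spermatogonia divide by mitosis with incomplete cytokinesis, so that sister germ cells stay joined by intercellular bridges, and a separate set of kinesins serves the flagellum of later germ cells.

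The study compared 3 libraries from Ddx20 knockout mice with 3 from control littermates, all from THY1-positive spermatogonia at day 4, with about 1000 cells per library. DDX20 is an RNA helicase that binds the SMN protein. RNA was copied from oligo-dT primers and amplified by SMART-seq2, and the deposited table gives read counts for each Ensembl gene. The column names call the knockout cKO, but the labels name neither the cells in which Ddx20 was deleted, nor the driver of the deletion, nor the alleles of the controls. The controls are described as littermates, but no label ties a library to an animal or litter. The p-values therefore measure the spread between these libraries, which may be technical.

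Libraries held from 8428871 to 12497967 counted reads. Ddx20 itself had 668, 383 and 531 reads in control libraries 1 to 3 and 128, 168 and 119 in knockout libraries 1 to 3, which gave a log2 fold change of -1.89 ± 0.26 (SE; adjusted p = 0.0118 by edgeR's quasi-likelihood test). Reads of Ddx20 remained in all 3 knockout libraries. The germ cell gene Ddx4 was present in all 6 libraries at 315 to 486 CPM (reads of the gene relative to the TMM-scaled library total), and Thy1, whose product was used for selection, was at 5.60 to 13.7 CPM. Knockout libraries 1 and 2 were far more alike than the other 14 pairs of libraries. Their mean chi-square statistic per gene was 1.78, beside 11.96 to 104 in those pairs and the 1 that is due to sampling noise. This exceeds sampling noise, but it cannot tell whether the pair came from separate samples or from 1 sample. The labels number them as replicates, and both were counted as separate samples. Calls with the pair merged into 1 library are given beside those of the kinesins and of the gene lists. Control 1 was the farthest from the others, with 48.4 to 104 against each of them. The share of reads from mitochondrial genes was 14.0% to 16.9% in the controls and 19.8% to 20.1% in the knockouts, so it moved with genotype. With the mitochondrially encoded genes left out, edgeR called Kif18b as the single kinesin, beside 414 genes lower and 302 higher. The median log2 fold changes of mitotic and transport kinesins were then -0.47 and -0.26, the same as with those genes kept. That fit removes their reads alone, and any other part of this share in the kinesin values was not tested.

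Of the 38 kinesins, 35 had enough reads to be tested, and Kif18b was the single one that differed between genotypes at an adjusted p under 0.05 by edgeR's quasi-likelihood test. That is 1 gene lower and 0 higher, where edgeR called 4.83% of all 14766 genes tested, 2.8% as lower and 2.03% as higher in the knockout. The share of kinesins called was near the background. In simulated counts edgeR recovered 9.9% of 1.5-fold and 33.9% of 2-fold changes, so the lack of a call does not show the lack of a change. At an unadjusted p under 0.05, 8 kinesins were lower and 2 higher, and those shares over all genes were 12.8% and 11.3%. DESeq2 called 6 kinesins lower and 0 higher, where it called 4.48% and 4.54% of 17758 genes. Limma-voom with quality weights called 7 lower and 2 higher, where it called 11.3% and 7.38% of all genes. The log2 fold change was negative in 26 of the 35 tested kinesins and positive in 9, against 49.7% negative over all genes, and its median was -0.34 for the kinesins and 0.01 for all genes.

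Both mitotic and transport kinesins were among the 4 members of highest level. Levels of different genes were compared as RPKM, which is CPM divided by the gene's exon length per 1000 bases, averaged over the 6 libraries. Kif3a, a transport motor, had the highest mean level at 15.1 RPKM. Kif2a followed at 11.7 RPKM, Kif20b at 11.5 RPKM and Kif5b at 10.6 RPKM. Kif23, Kif2c, Kif22 and Kif11, all mitotic, came next at 6.78, 6.76, 5.63 and 5.58 RPKM. The ranges of RPKM over the 6 libraries, both genotypes pooled, overlapped among Kif3a, Kif2a, Kif20b and Kif5b, and among Kif23, Kif2c, Kif22 and Kif11. In the knockouts alone Kif3a was at 13.08 to 14.69, Kif20b at 10.69 to 12.53, Kif2a at 8.724 to 10.08 and Kif5b at 8.165 to 8.583 RPKM, without overlap. In the controls alone these 4 overlapped, with means of 16.2, 11.1, 13.9 and 12.8 RPKM in that order. Kif23 lay above Kif2c, Kif22 and Kif11 in the knockouts. The lowest levels were those of Kif17, Kif26b, Kifc5b and Kif1a.

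**Figure D1:**
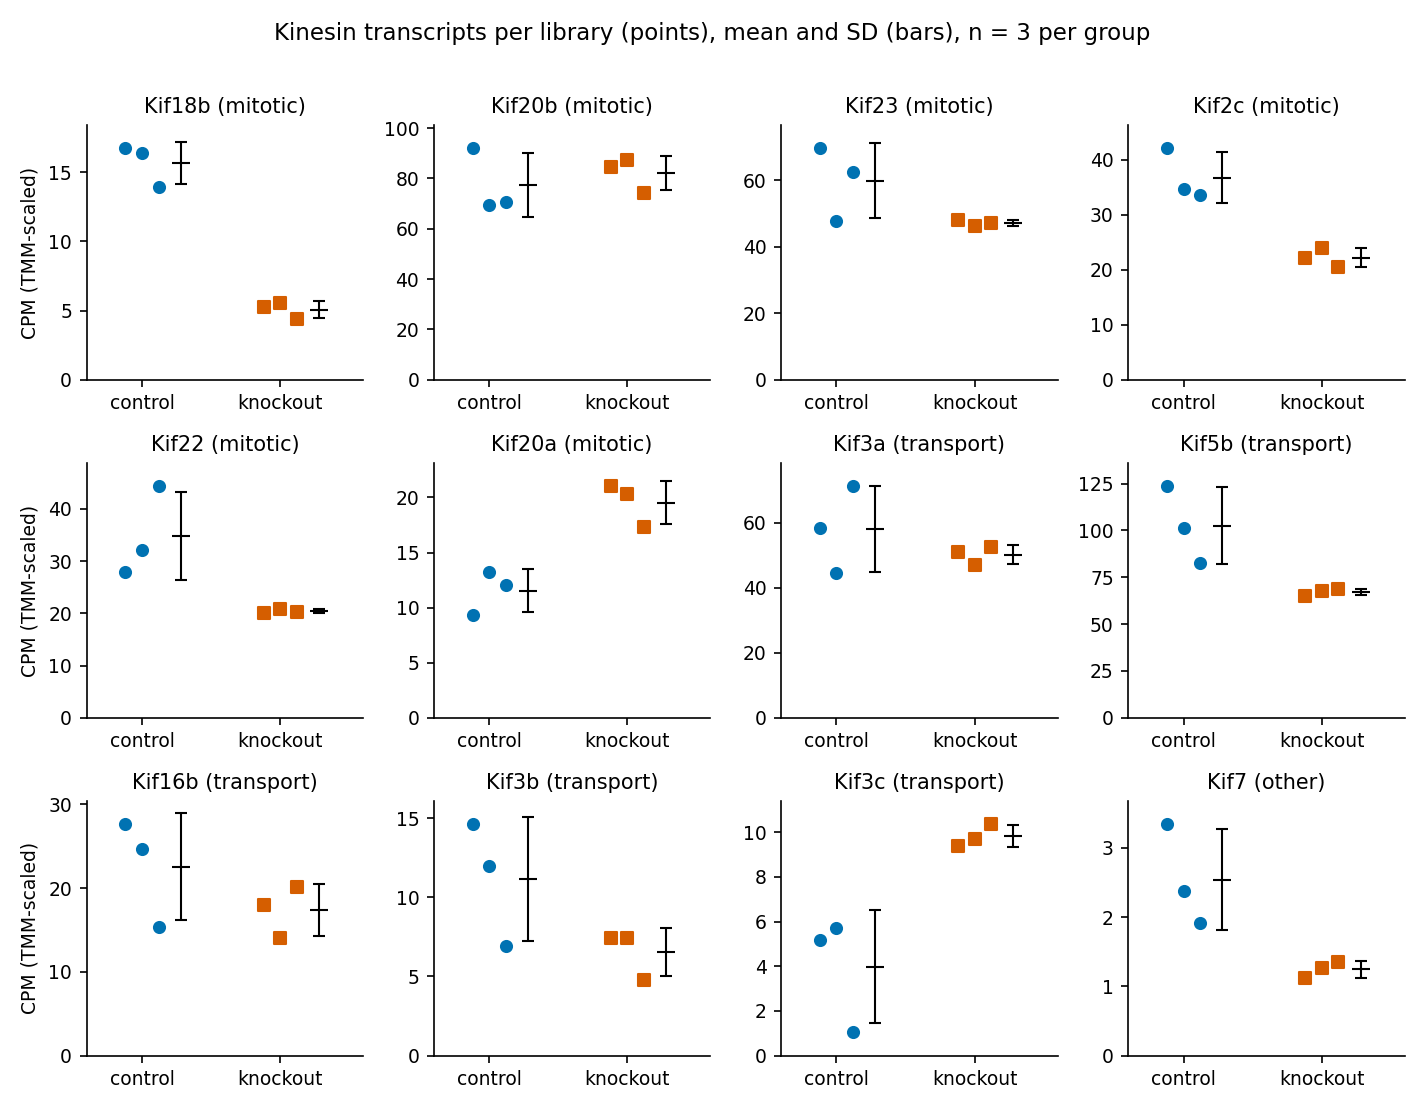
CPM (vertical axes) of 12 kinesins in each library, with circles for controls, squares for Ddx20 knockouts and the mean ± SD of 3 libraries as a bar beside them. The 3 knockout points of Kif18b lie between 4.41 and 5.53 CPM, below the 3 control points at 13.9 to 16.7 CPM, while the groups overlap for Kif3a and Kif20b.

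Kif18b (ENSMUSG00000051378; mm10, chr11:102905529-102925124, minus strand, exons of 3572 bases in all) encodes a motor that takes apart the plus ends of astral microtubules during mitosis. It had 175, 173 and 182 reads in control libraries 1 to 3 and 57, 61 and 49 reads in knockout libraries 1 to 3. On the CPM scale the controls were at 16.7, 16.4 and 13.9 and the knockouts at 5.30, 5.53 and 4.41. Every knockout library lay below every control library, and within each genotype the libraries were close together. The control mean of 15.7 ± 1.52 CPM (SD, n = 3) was 3.09-fold higher than the knockout mean of 5.08 ± 0.592 CPM (SD, n = 3). Kif18b fell by 1.62 ± 0.28 (SE) on the log2 scale, at an adjusted p of 0.0186 in edgeR's quasi-likelihood test. In a bulk library, fewer dividing cells and less Kif18b RNA per cell cannot be told apart.

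Kif18b was called lower in 14 of 19 alternative fits, with log2 fold changes from -1.89 to -1.53 over the 19. With knockout libraries 1 and 2 merged, the log2 fold change was -1.67 and the edgeR adjusted p was 0.125, where edgeR then called 0.0% of 15406 genes as lower and 0.00649% as higher. In the same merged design DESeq2 gave an adjusted p of 0.00784 and called 2.95% of 8914 genes lower and 2.29% higher. Limma-voom gave 0.0248 and called 1.29% and 1.36% of 15406 genes. DESeq2 gave no adjusted p to the remaining genes in that design, so these cannot be called by it. The edgeR call was also lost without control 2 (adjusted p = 0.0509) and without knockout 1, 2 or 3 (adjusted p = 0.118, 0.117 and 0.0672). Over all genes edgeR then called 70 lower without control 2 and 1, 3 and 1 lower without knockout 1, 2 or 3. With all 6 libraries it called 413.

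The start of Kif18b is shown because it is the called member and because it carries sequence words found at many genes of the late cell cycle. The sequence runs 5′ to 3′ from 250 bases before to 50 after the transcript start in RefSeq (GRCm38.p6, chr11:102925075-102925374, minus strand). Capitals mark a pair of CCAAT boxes, the recognition word of the factor NF-Y, and the word TTTGAA, which is the core of the cell cycle homology region. The boxes begin 53 and 30 bases before the start, and TTTGAA begins at base 4, counting the start as base 1.
Kif18b: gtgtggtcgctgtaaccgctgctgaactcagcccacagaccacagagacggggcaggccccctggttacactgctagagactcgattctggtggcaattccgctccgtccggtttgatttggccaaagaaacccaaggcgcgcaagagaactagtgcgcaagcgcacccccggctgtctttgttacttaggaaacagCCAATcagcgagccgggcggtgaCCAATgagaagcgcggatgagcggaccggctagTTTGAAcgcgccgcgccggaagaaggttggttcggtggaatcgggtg

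The other tested kinesins of spindle assembly and chromosome movement had lower means in the knockout and no call by edgeR. Kif2c (chr4:117159639-117182639, minus strand), the depolymerase that corrects microtubule attachments at centromeres, was at 42.0, 34.6 and 33.6 CPM in control libraries 1 to 3 and at 22.2, 23.9 and 20.4 CPM in knockout libraries 1 to 3. Its log2 fold change of -0.73 ± 0.19 (SE) had an edgeR adjusted p of 0.0551. All knockout libraries of Kif2c lay below all controls. Kif22 (chr7:127027729-127042471, minus strand), a chromokinesin that pushes chromosome arms away from the poles, was at 27.99, 32.1 and 44.3 CPM in controls and at 20.1, 20.8 and 20.3 CPM in knockouts. It had a log2 fold change of -0.77 ± 0.22 (SE) and an adjusted p of 0.0666 by edgeR. The knockout values of Kif22 were nearly equal while its controls were spread widely, with control 3 the highest. Without control 1 its edgeR adjusted p was 0.0335 and its log2 fold change -0.91.

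Kif11 and Kif15, the motors that push the spindle poles apart, and the remaining spindle members were chosen for description after their values were seen. Kif11 (chr19:37376403-37421859, plus strand) was at 50.5, 47.0 and 52.7 CPM in controls and at 35.2, 33.3 and 31.1 CPM in knockouts. Its groups were narrow and did not overlap, the log2 fold change was -0.59 ± 0.16 (SE) and the adjusted p 0.0627 by edgeR. Kif15 had log2 fold change -0.47 and Kif18a, which dampens the swings of aligned chromosomes, had -0.41, both with groups that did not overlap and with adjusted p of 0.194 and 0.244 by edgeR. Kif4, a chromokinesin that works with PRC1 at the midzone, overlapped between the groups at a log2 fold change of -0.52 and an edgeR adjusted p of 0.223. DESeq2 gave adjusted p-values of 0.0249 for Kif2c, 0.0362 for Kif22 and 0.0367 for Kif11, so these 3 genes lay on either side of 0.05 depending on the test. With knockout 1 and 2 merged, Kif18b was the single kinesin called by DESeq2 and by limma-voom. DESeq2 then gave an adjusted p to 21 kinesins, 11 mitotic, 8 transport and 2 other, and limma-voom to 36.

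Kinesins of the midzone and of cytokinesis did not share the sign of Kif18b throughout. Kif23 (chr9:61915905-61946774, minus strand) is the motor of centralspindlin and is also a component of germ cell intercellular bridges. It was at 69.6, 47.6 and 62.6 CPM in controls and at 48.2, 46.3 and 47.3 CPM in knockouts. The knockout values of Kif23 were within 2 CPM of each other and control 2 fell among them, so the groups overlapped. Its log2 fold change of -0.34 ± 0.18 (SE) had an edgeR adjusted p of 0.265. Kif20b (chr19:34922361-34975745, plus strand), which acts in the last step of cytokinesis, was at 91.9, 69.6 and 70.8 CPM in controls and at 84.7, 87.2 and 74.4 CPM in knockouts. These libraries were interleaved, with a log2 fold change of 0.08 ± 0.16 (SE) and an adjusted p of 0.801 by edgeR. Kif14, which works with citron kinase at the midbody, was at 23.3 CPM in control 1 and between 9.81 and 11.5 CPM in the other 5 libraries. Its log2 fold change of -0.38 turned to 0.15 without control 1.

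Kif20a, the motor that brings the chromosomal passenger complex to the midzone, had the opposite sign and was chosen for description after its values were seen. It was at 9.36, 13.2 and 12.03 CPM in control libraries 1 to 3 and at 21.0, 20.3 and 17.3 CPM in knockout libraries 1 to 3. All 3 knockout libraries lay above all 3 controls. The log2 fold change of 0.76 ± 0.24 (SE) had adjusted p-values of 0.095 by edgeR and 0.0374 by limma-voom. The exons of Kif20a share 1271 bases with Cdc23, a subunit of the anaphase-promoting complex on the opposite strand. No strand was recorded for these reads, so reads from the shared bases cannot be assigned to either gene. Cdc23 was at 18.8, 21.4 and 26.4 CPM in controls and at 12.2, 12.6 and 11.5 CPM in knockouts, a log2 fold change of -0.88 (edgeR adjusted p = 0.0567), so the pair of neighbours had opposite signs.

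The minus-end motors of the spindle were close to the limit of detection. Kifc1 and Kifc5b are near-identical copies that share 17.0% of the 100-base words of Kifc1 and 16.6% of those of Kifc5b, so reads can have been split between them or dropped. Kifc1 had 0, 5 and 1 reads in controls and 3, 5 and 5 in knockouts. Kifc5b had 2, 3 and 24 reads in controls and 0, 0 and 8 in knockouts, and most of its reads came from control 3. Kif2b, a relative of Kif2c, had no read in any control and 8, 6 and 4 reads in the knockouts. A count of 0 allows up to 3 reads in a library, or 0.230 to 0.287 CPM in these controls, and such floors cover counting error only because reads carried no molecular identifiers.

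Among transport kinesins no gene was called by edgeR. Of 13 tested, 10 had negative and 3 positive log2 fold changes, the lowest adjusted p was 0.0653, and at an unadjusted p under 0.05 there were 2 lower and 1 higher. DESeq2 called 1 of them lower, Kif5b, and limma-voom called Kif5b lower and Kif3c higher. Kif5b, the ubiquitous heavy chain of conventional kinesin, was at 123, 101 and 82.6 CPM in controls and at 65.2, 67.8 and 68.5 CPM in knockouts. The knockouts were tight and all below the controls, which were spread more widely. The log2 fold change of Kif5b was -0.61 ± 0.17 (SE), with adjusted p-values of 0.0653 by edgeR and 0.0295 by DESeq2, and of 0.0350 by edgeR without control 3. Its paralogs Kif5c and Kif5a, known mainly from neurons, had log2 fold changes of 0.25 and -0.53 with edgeR adjusted p-values of 0.618 and 0.609. Klc1, a light chain that links conventional kinesin to cargo, was at 14.5, 19.5 and 14.7 CPM in controls and at 13.9, 14.3 and 13.0 CPM in knockouts (edgeR adjusted p = 0.588).

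The heterotrimeric kinesin of cilia and vesicle transport had members of unlike sign. Kif3a (ENSMUSG00000018395; chr11:53567379-53601967, plus strand) was at 58.5, 44.5 and 71.2 CPM in controls and at 51.1, 46.9 and 52.7 CPM in knockouts. Its knockouts fell inside the range of the controls, with a log2 fold change of -0.21 ± 0.19 (SE) and an adjusted p of 0.545 by edgeR. Its partner Kif3b was at 14.6, 11.96 and 6.90 CPM in controls and at 7.44, 7.44 and 4.77 CPM in knockouts. Control 3 lay among the knockouts, and the log2 fold change of Kif3b was -0.77 ± 0.36 (SE) with an adjusted p of 0.229 by edgeR. Kifap3, the subunit that holds both motors to their cargo, was at 30.5, 27.1 and 24.2 CPM in controls and at 29.4, 25.7 and 37.2 CPM in knockouts (edgeR adjusted p = 0.659).

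Kif3c (chr12:3365132-3406494, plus strand), an alternative partner of Kif3a, was at 5.16, 5.69 and 1.07 CPM in controls and at 9.39, 9.71 and 10.4 CPM in knockouts. All knockouts were higher than all controls, and control 3 stood far below the other controls with 14 reads. The log2 fold change of Kif3c was 1.31 ± 0.52 (SE), with adjusted p-values of 0.157 by edgeR and 0.0297 by limma-voom, and it was 0.85 without control 3. The exons of Kif3c share 3205 bases with genes on the other strand, among them 1110002L01Rik. That gene had 0, 14 and 51 reads in controls and 3, 6 and 19 in knockouts. It was highest in the control library where Kif3c was lowest, while in the knockouts both genes were highest in library 3. Reads of the 2 genes cannot be told apart in the shared bases.

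The start of Kif3a, the transport kinesin of highest level, is shown for comparison with that of Kif18b (RefSeq, GRCm38.p6, chr11:53567119-53567418, plus strand, 5′ to 3′). It holds 1 CCAAT box, written as ATTGG on this strand and marked in capitals 18 bases before the start, and no TTTGAA or TTCGAA on either strand.
Kif3a: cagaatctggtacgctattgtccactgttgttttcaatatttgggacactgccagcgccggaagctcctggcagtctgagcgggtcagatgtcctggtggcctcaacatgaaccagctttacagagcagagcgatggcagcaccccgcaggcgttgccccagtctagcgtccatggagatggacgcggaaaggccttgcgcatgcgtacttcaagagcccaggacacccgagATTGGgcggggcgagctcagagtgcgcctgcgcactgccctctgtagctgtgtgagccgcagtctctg

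Kif16b, which moves early endosomes, was at 27.6, 24.7 and 15.4 CPM in controls and at 17.9, 14.1 and 20.2 CPM in knockouts. The groups overlapped, with a log2 fold change of -0.37 ± 0.27 (SE) and an adjusted p of 0.437 by edgeR. Kif13b, a vesicle motor chosen for description after its values were seen, was at 17.0, 18.2 and 16.7 CPM in controls and at 11.2, 11.8 and 9.45 CPM in knockouts. Its groups were narrow and did not overlap, at a log2 fold change of -0.68 ± 0.24 (SE) and an adjusted p of 0.121 by edgeR. The vesicle motors Kif1b, Kif1c and Kif13a had log2 fold changes of -0.34, -0.26 and -0.02, and the minus-end motors Kifc2 and Kifc3 had -0.17 and 0.41, all with edgeR adjusted p-values of 0.421 or more. Kif17 and Kif1a, which carry vesicles in neurons, were too low to test. Kif17 had 0, 11 and 0 reads in controls and 6, 8 and 42 in knockouts, most of them in 1 library, and Kif1a had 0 to 11 reads in every library.

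The 11 other kinesins included 0 called by edgeR, with 7 negative and 4 positive log2 fold changes and a lowest adjusted p of 0.0724. At an unadjusted p under 0.05, 1 was lower and 0 higher, and DESeq2 and limma-voom each called 1 lower, Kif2a. Kif2a (chr13:106958996-107022126, minus strand), a depolymerase that acts at spindle poles and in nerve cells, was chosen for description after its values were seen. It was at 92.3, 74.4 and 100.7 CPM in controls and at 55.8, 60.9 and 64.5 CPM in knockouts. The knockouts all lay below the controls, with a log2 fold change of -0.56 ± 0.16 (SE) and adjusted p-values of 0.0724 by edgeR and 0.0429 by DESeq2. The exons of Kif4, Kif27, Kif5b, Kifc2 and Kifc3 also share 832, 332, 324, 163 and 1458 bases with genes on the other strand. Kif2a shares 1229 exon bases with Dimt1 on the other strand, whose log2 fold change was 0.21 (edgeR adjusted p = 0.650).

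Kif7 (chr7:79698098-79715720, minus strand), the ciliary regulator of Hedgehog signalling, had 35, 25 and 25 reads in controls and 12, 14 and 15 in knockouts. The groups did not overlap, and the log2 fold change of Kif7 was -1.02 ± 0.65 (SE) with an adjusted p of 0.370 by edgeR. Kif26b had 0, 20 and 21 reads in controls and 36, 42 and 23 in knockouts. Its groups did not overlap, but only narrowly so in knockout 3, and the log2 fold change of 1.38 ± 0.97 (SE) had an adjusted p of 0.425 by edgeR and was 0.81 without control 1. Both genes share exon bases with genes on the other strand, 928 bases for Kif7 and 909 for Kif26b. Kif27, a relative of Kif7, and Kif24, a centriole protein, had log2 fold changes of -0.81 and 0.02. Kif21a and Kif21b, which restrain microtubule growth, had 0.41 and -0.14. The genes of cilia and flagella Kif19a, Kif6 and Kif9 had -0.75, -0.06 and -0.18, and Kif26a had 0.15. None of these 8 reached an edgeR adjusted p below 0.231.

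**Figure D2:**
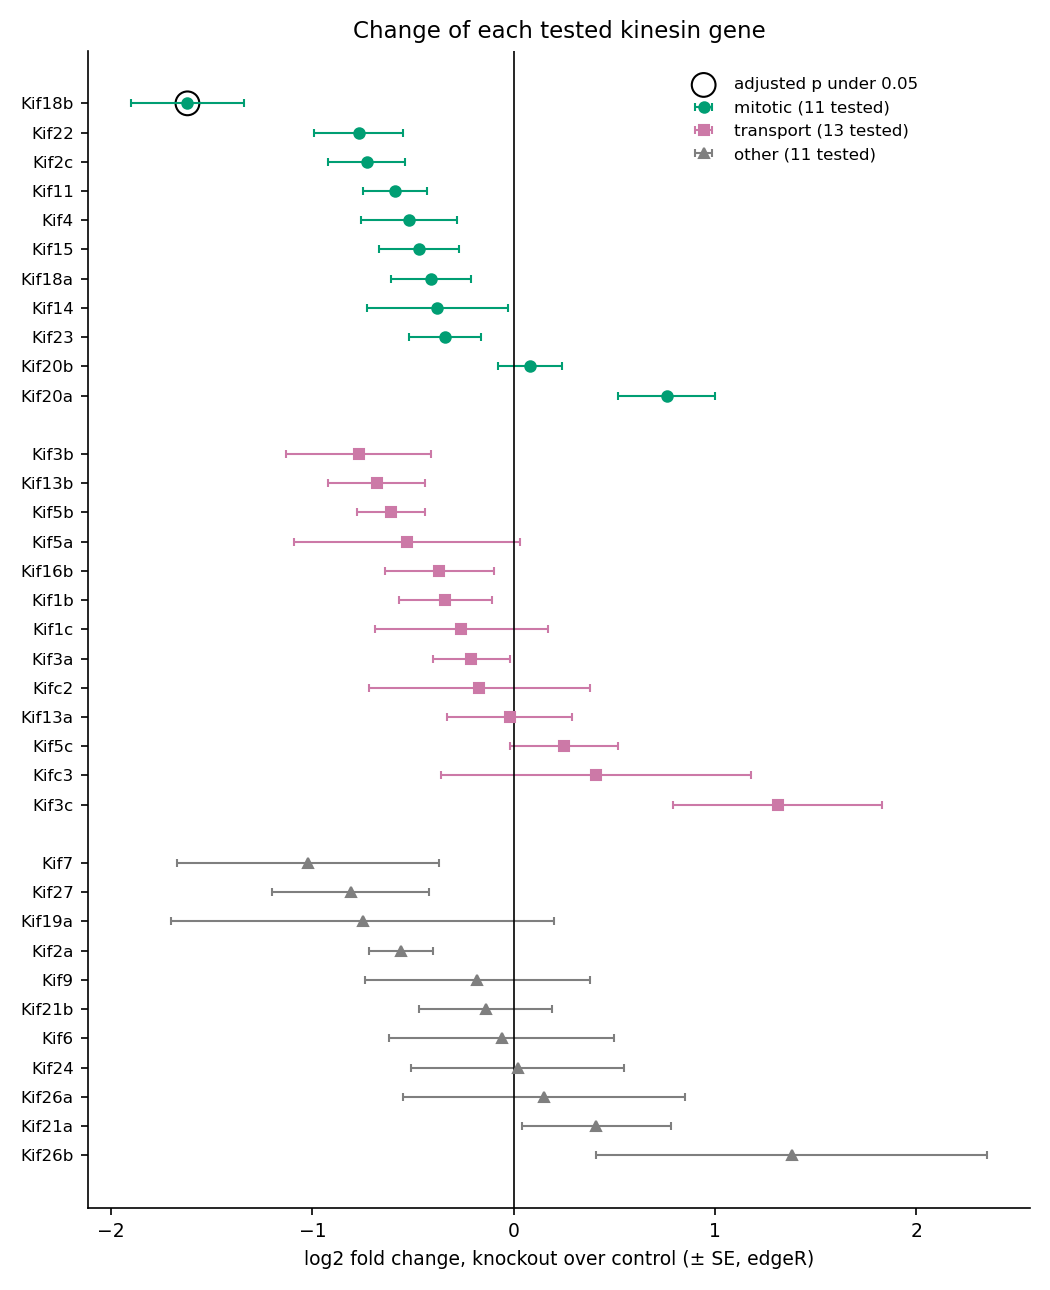
Log2 fold change (knockout against control, horizontal axis) of each of the 35 tested kinesins with its standard error as a bar, grouped as mitotic, transport and other. Kif18b, the single gene called by edgeR, is at -1.62, and the class medians are -0.47, -0.26 and -0.14.

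Set side by side, mitotic kinesins had a more negative median than transport kinesins. The median log2 fold change was -0.47 over 11 mitotic, -0.26 over 13 transport and -0.14 over 11 other kinesins, beside 0.01 over all 14766 genes tested. Mitotic minus transport was -0.21, and the same difference of medians varied between libraries of a genotype with an SD of 0.15. Leaving out libraries and the other alternatives gave -0.29 to -0.09, and the difference was not tested. Without control 1 the mitotic median was -0.30 and the difference -0.09. Among the mitotic kinesins 9 of 11 were negative, and 5 were lower and 1 higher at an unadjusted p under 0.05. Groups did not overlap for 6 mitotic kinesins on the lower side and 1 on the higher side, 63.6% of the 11, beside 32.6% of all genes, 15.8% lower and 16.8% higher. The same share was 23.1% of transport and 27.3% of other kinesins, and 37.1% of all 35, of which 10 were on the lower and 3 on the higher side. Kinesin exons are long, with a median of 6957 bases against 4219 over all genes. With the trend of the fold change on exon length and GC content removed, the medians of mitotic, transport and other kinesins were -0.30, -0.15 and 0.03, and Kif18b was at -1.64 (edgeR adjusted p = 0.0169).

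Summed RPKM was lower in the knockout for every class, by similar ratios. The 12 mitotic kinesins summed to 66.8, 58.0 and 63.0 RPKM in controls and to 49.1, 49.5 and 45.3 RPKM in knockouts. The 15 transport kinesins summed to 47.4, 39.7 and 40.4 RPKM in controls and to 35.1, 33.9 and 34.6 RPKM in knockouts. Both sums were lower in every knockout library than in every control library. The ratio of the knockout to the control mean was 0.766 for mitotic, 0.813 for transport and 0.748 for other kinesins, and the groups of libraries did not overlap in any class. Genes of high level weigh most in these sums, so a ratio does not describe every member. Kif2a had means of 13.9 RPKM in controls and 9.44 in knockouts, where the other class summed to 20.2 and 15.1. Kif5b had 12.8 and 8.42 RPKM, where the transport class summed to 42.5 and 34.5. As a share of all kinesin RPKM, the mitotic class took 49.6%, 50.2% and 50.1% in controls and 50.1%, 50.4% and 47.0% in knockouts. The transport class took 35.2%, 34.3% and 32.2% in controls and 35.8%, 34.5% and 35.9% in knockouts, and the groups overlapped in both shares. These sums depend on the scaling, since scaling to total library size alone moved the median of all genes from 0.01 to -0.26. Under it edgeR called 6 kinesins lower and 0 higher, where it called 1152 of all genes lower (7.8%) and 226 higher (1.53%) in place of 413 and 300.

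**Figure D3:**
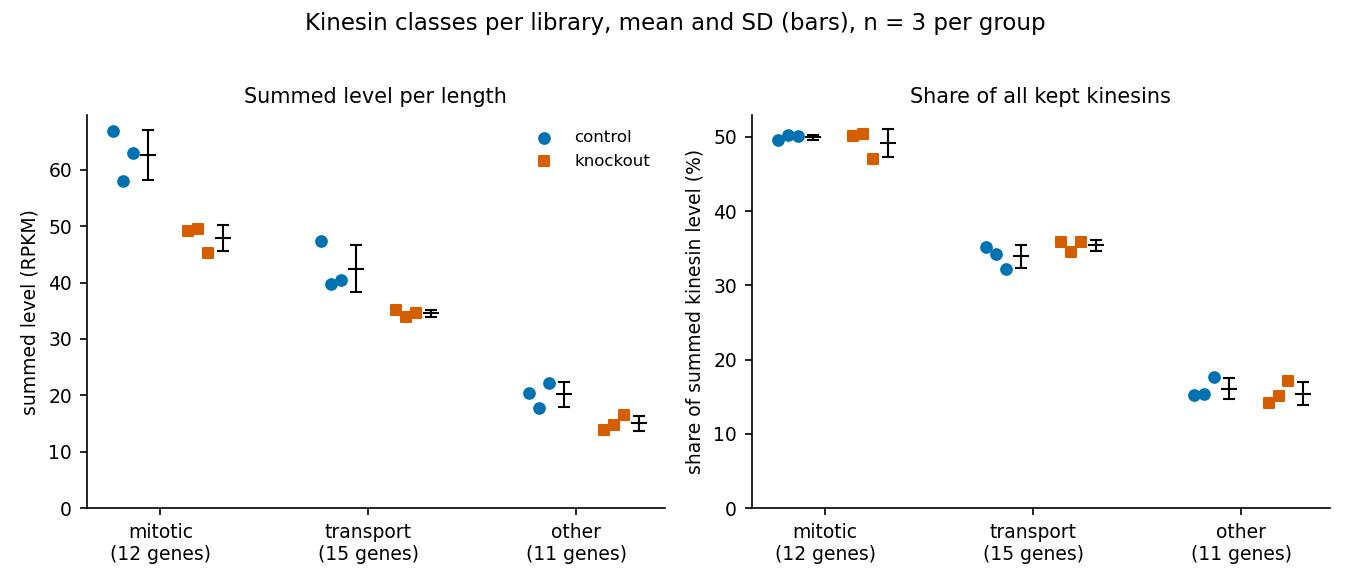
Summed RPKM of the mitotic, transport and other kinesins (left) and each class as a percent of all kinesin RPKM (right), with 1 point per library and the mean ± SD of 3 libraries as a bar beside the points. Knockout sums lie below control sums in each class, with means of 47.97 against 62.6 RPKM for the mitotic and 34.5 against 42.5 RPKM for the transport class, while the shares overlap.

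Among proteins that work with mitotic kinesins, edgeR called 10 of 24 tested genes lower and 0 higher, 22 had a negative log2 fold change, and the median was -0.51, where 2.8% of all genes were called lower. The list was chosen with earlier results of these data known, so its direction is not independent evidence. With knockout 1 and 2 merged, edgeR called 0 of the 24 and 0.0% of all genes lower. DESeq2 and limma-voom each called 8 lower in that design, where they called 2.95% of 8914 and 1.29% of 15406 genes lower. Without control 1, 2 or 3 edgeR called 12, 3 and 9 of them, where it called 425, 70 and 468 of all genes lower. The 3 were Anln, Cep55 and Ect2, and the 9 were all of the 10 but Aurkb. Without knockout 1, 2 or 3 it called 0 of them, where it called 1, 3 and 1 of all genes lower. Cenpe, the kinetochore kinesin whose symbol falls outside the name rule, was at 224, 201 and 188 CPM in controls and at 117, 114 and 131 CPM in knockouts. All knockout libraries lay far below the controls, and Cenpe fell by 0.76 ± 0.15 (SE) on the log2 scale with an adjusted p of 0.0244 by edgeR. Racgap1, the partner of Kif23 in centralspindlin, was at 79.4, 73.3 and 50.6 CPM in controls and at 71.9, 64.4 and 77.1 CPM in knockouts. Those groups overlapped, and the edgeR adjusted p was 0.860.

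The called partners spanned several steps of division. Aurkb and Incenp, the kinase and scaffold of the chromosomal passenger complex that Kif20a carries, fell by 0.63 and 1.19 on the log2 scale (edgeR adjusted p = 0.0485 and 0.0205). Birc5 and Cdca8, further subunits of that complex in the list, overlapped between the groups and were not called. Their log2 fold changes were -0.12 and -0.15 (edgeR adjusted p = 0.821 and 0.607). Ect2, Anln and Cep55, which drive furrow formation and abscission downstream of Kif23, fell by 1.05, 0.92 and 1.18 (edgeR adjusted p = 0.0119, 0.0146 and 0.0205). The spindle proteins Hmmr and Ckap5 fell by 1.04 and 0.83, and the checkpoint kinases Bub1 and Bub1b fell by 0.65 and 0.79 (edgeR adjusted p = 0.0230, 0.0205, 0.0395 and 0.0278). In a list of 18 regulators and reference genes of late cell cycle transcription, edgeR called 4 lower and 0 higher, where it called 2.8% and 2.03% of all genes, and the list median was -0.37. These were Foxm1, Top2a, Mki67 and Ccnb2, which fell by 1.58, 1.12, 0.88 and 0.71 on the log2 scale (edgeR adjusted p = 0.0204, 0.0205, 0.0326 and 0.0400). With knockout 1 and 2 merged edgeR called 0 of the 18, and DESeq2 and limma-voom each called the same 4. Without control 2 edgeR called Foxm1 alone, and without knockout 1, 2 or 3 it called 0 of the 18. Over all genes it called 70 lower without control 2 and 1, 3 and 1 without knockout 1, 2 or 3.

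Partners of the transport kinesins include adaptors, light chains and small GTPases that tie the motors to cargo. Of 17 tested, edgeR called 0, with 10 negative and 7 positive log2 fold changes and a median of -0.06. At an unadjusted p under 0.05 in edgeR, 1 was lower and 4 higher, beside 12.8% and 11.3% of all genes. DESeq2 called 1 of 20 higher, Arl8a, where it called 4.54% of all genes higher. Limma-voom called 3 of 17 higher, where it called 7.38% of all genes higher. These were Arl8a, Arl8b and Sybu, which link kinesins to lysosomes and vesicles. With knockout 1 and 2 merged, neither tool called any transport partner, where DESeq2 gave an adjusted p to 12 of them and limma-voom to 18. Dynein with dynactin is the motor that runs the other way. Of 20 genes of it and its regulators, edgeR called 1 lower, Pafah1b1 (log2 fold change -0.58, adjusted p = 0.0496), at a median of -0.03. That call was 1 of 20, where 2.8% of all genes were called lower. In edgeR it was lost with DESeq2 size factors, with no filter on low counts and with length and GC removed. It was also lost with knockout 1 and 2 merged, and without control 2 or any 1 knockout library. DESeq2 called Pafah1b1 lower and Dctn6 higher, where it called 4.48% and 4.54% of all genes. Limma-voom called 4 lower, Pafah1b1 among them, and 1 higher, Dctn6, where it called 11.3% and 7.38%. With the pair merged, neither of these tools called any gene of this list. Of 20 genes of intraflagellar transport, the cargo trains of Kif3a and Kif3b, edgeR and DESeq2 called 0 and limma-voom called 3 lower, where it called 11.3% of all genes lower, and the edgeR median was -0.07. At an unadjusted p under 0.05 in edgeR, 4 of these were lower and 2 higher, beside 12.8% and 11.3% of all genes. With knockout 1 and 2 merged limma-voom called 0.

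**Figure D4:**
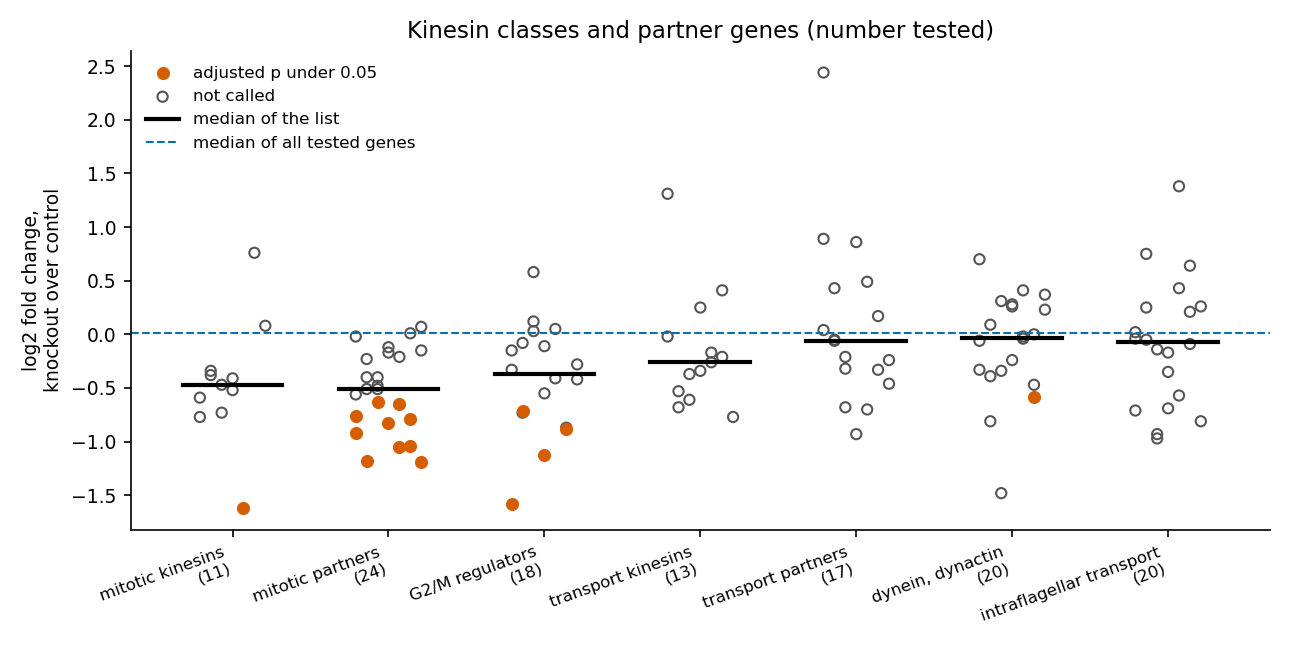
Log2 fold change (vertical axis, knockout over control) of every tested gene in the lists of mitotic and transport kinesins, their partners, late cell cycle regulators (labelled G2/M), dynein with dynactin and intraflagellar transport, with a bar at each median, filled points for genes called by edgeR and a dashed line at the median of all genes. The median is -0.51 for the mitotic partners and between -0.07 and -0.03 for the transport partners, dynein with dynactin and intraflagellar transport.

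Markers of other testis cells moved with genotype beside these values. Calls in these lists are edgeR's where no other tool is named, and edgeR called 2.03% of all genes higher and 2.8% lower. Summed over its list, the Sertoli cell markers were at 87.1 to 109 CPM in controls and 172 to 214 CPM in knockouts, with 2 of 9 tested called higher. The log2 fold change was negative in 3 of the 9, and limma-voom called Rhox5 lower. Markers of peritubular myoid and smooth muscle cells were at 142 to 175 against 340 to 457 CPM, with 3 of 6 called higher, and those of fibroblasts at 847 to 1190 against 1610 to 1720 CPM, with 2 of 7. The log2 fold change was negative in 2 of the 7 fibroblast markers, and DESeq2 and limma-voom called Fn1 lower. Macrophage markers were at 660 to 1630 against 1830 to 2660 CPM with 0 of 7 called by edgeR, and endothelial markers at 32.1 to 39.7 against 42.7 to 54.3 CPM with 0 of 6. DESeq2 and limma-voom called the macrophage marker Lyz2 higher, where they called 4.54% and 7.38% of all genes higher. Limma-voom also called the endothelial marker Emcn higher. T lymphocyte markers overlapped between the groups at 34.0 to 58.6 against 54.1 to 71.0 CPM, with 1 of 6 called higher. The lists of Leydig cells, at 35.7 to 68.5 against 48.7 to 68.1 CPM, and of neurons and glia, at 46.5 to 78.4 against 58.8 to 62.6 CPM, overlapped between the groups, and the Leydig cell marker Hsd3b6 was at 0 in all libraries. Germ cell markers summed to 3650 to 4410 CPM in controls and 4070 to 4490 CPM in knockouts, ranges that overlap, while the median log2 fold change of the 10 genes was -0.47 and 3 were called lower, Gfra1, Kit and Tex14. With knockout 1 and 2 merged edgeR called 0 genes in every one of these marker lists. In that design DESeq2 and limma-voom each called 2 Sertoli, 2 myoid and 2 fibroblast markers and the macrophage marker Lyz2 higher and no T lymphocyte marker. Of the T lymphocyte markers DESeq2 gave an adjusted p to 2 there and limma-voom to 6. Of the germ cell markers DESeq2 called Kit lower and limma-voom called 0. DESeq2 then called 2.29% of 8914 genes higher and 2.95% lower, and limma-voom called 1.36% and 1.29% of 15406. The part of these cells in the kinesin values was not tested.

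Sequence words near the start sites were counted by class. Of the 38 kinesins, 30 matched the RefSeq promoter table of GRCm38.p6, and Kif13b, Kif19a, Kif20a, Kif21b, Kif5a, Kif5b, Kifc2 and Kifc3 did not. The word TTTGAA or TTCGAA, read on both strands and taken as the core of the cell cycle homology region, occurred within the 300 bases around the start in 10 of 11 mitotic kinesins (90.9%). It occurred in 1 of 10 transport kinesins (10%), Kif1a, in 3 of 9 other kinesins (33.3%) and in 5854 of 27025 genes in the table (21.7%). Kif18a was the mitotic kinesin without it. A CCAAT box, on either strand, was present in 7 mitotic (63.6%), 3 transport (30%) and 4 other kinesins (44.4%) and in 41.1% of all genes. Both words together were present in 7 mitotic (63.6%), 0 transport and 3 other kinesins (33.3%) and in 9.65% of all genes. The E2F words TTTCCCGC, TTTCGCGC, TTTGCCGC and TTTGGCGC, on either strand, were found in Kif15 and Kif18a, 18.2% of the mitotic class, in 0 transport and 0 other kinesins and in 2.6% of all genes. A match describes the letters and not the binding of a factor, and several words can overlap or adjoin, as they do in Kif15.

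**Figure D5:**
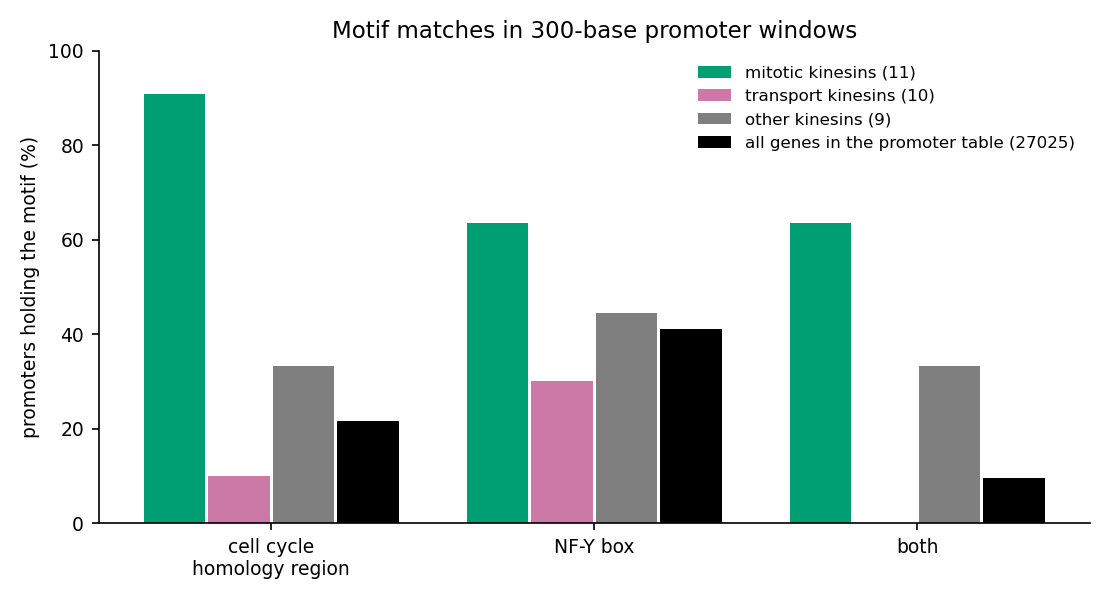
Share of promoters (vertical axis, percent) that hold the cell cycle homology region word, the CCAAT box (labelled NF-Y box) or both in the 300 bases around the start, as bars for mitotic, transport and other kinesins and for all genes in the promoter table. The homology region bar is at 90.9% for the 11 mitotic kinesins and 10% for the 10 transport kinesins, beside 21.7% of all genes, and no transport kinesin holds both words.

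A narrower window was counted in the same way. From 70 bases before to 40 after the start, the homology region word was present in 8 of 11 mitotic kinesins (72.7%), 1 of 10 transport kinesins (10%), 2 of 9 other kinesins (22.2%) and 6.91% of all genes. These windows, a width chosen after the matches were seen, are shown for the 8 mitotic kinesins because they hold the word that was counted. Each runs 5′ to 3′ on its gene's strand, with the homology region word, CCAAT box and E2F word in capitals (RefSeq, GRCm38.p6).
Kif11, chr19:37376312-37376421, plus strand: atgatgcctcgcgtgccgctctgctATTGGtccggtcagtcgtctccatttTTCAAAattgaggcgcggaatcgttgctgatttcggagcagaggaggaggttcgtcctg
Kif15, chr9:122951011-122951120, plus strand: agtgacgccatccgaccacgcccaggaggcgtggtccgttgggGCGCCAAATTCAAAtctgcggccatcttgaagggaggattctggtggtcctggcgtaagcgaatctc
Kif18b, chr11:102925085-102925194, minus strand: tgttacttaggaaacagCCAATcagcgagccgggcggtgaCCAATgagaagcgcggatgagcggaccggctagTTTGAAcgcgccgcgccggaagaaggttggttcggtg
Kif20b, chr19:34922288-34922397, plus strand: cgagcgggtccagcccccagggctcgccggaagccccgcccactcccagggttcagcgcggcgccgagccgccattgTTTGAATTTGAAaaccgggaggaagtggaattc
Kif22, chr7:127042381-127042490, minus strand: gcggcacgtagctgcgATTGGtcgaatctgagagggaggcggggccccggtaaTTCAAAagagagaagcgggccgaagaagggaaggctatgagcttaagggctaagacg
Kif23, chr9:61946760-61946869, minus strand: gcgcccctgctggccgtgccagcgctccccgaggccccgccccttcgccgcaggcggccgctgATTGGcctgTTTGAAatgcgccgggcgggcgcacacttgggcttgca
Kif4, chrX:100625995-100626104, plus strand: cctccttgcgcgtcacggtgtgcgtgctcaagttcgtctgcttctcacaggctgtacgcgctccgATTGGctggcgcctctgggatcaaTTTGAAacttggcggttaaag
Kifc5b, chr17:26917021-26917130, plus strand: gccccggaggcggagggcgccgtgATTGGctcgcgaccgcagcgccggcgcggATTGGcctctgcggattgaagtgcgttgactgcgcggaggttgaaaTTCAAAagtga
In Kif11, Kif15 and Kif22 the word reads TTCAAA and begins 17 to 19 bases before the start, and in Kif18b, Kif20b, Kif23 and Kif4 it reads TTTGAA and begins 3 to 20 bases into the transcript. In Kifc5b it reads TTCAAA and begins at base 30. Kif20b holds 2 copies of TTTGAA in succession.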

How the data were processed

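RNA-seq by SMART-seq2 was analysed from 3 control and 3 Ddx20 knockout libraries. The authors deposited whole-number read counts per Ensembl gene, and their column of read sums equals the 6 library columns in all 22579 genes. The submitters' processing notes name mm10 as build and, with no roles, DESeq2, edgeR, StringTie 2.1.7, STAR 2.7.5c and Trimmomatic 0.39. For the counter, the annotation release and the strand setting, nothing is given in the sources used here. Symbols, positions and exon lengths came from GENCODE M21, which matched 22562 gene identifiers.

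Genes passing filterByExpr were tested by edgeR 4.0.16 (R 4.3.3) with TMM scaling, the robust quasi-likelihood F test and genotype as the single term. All p-values are two-sided, Benjamini-Hochberg adjusted over 14766 genes and called under 0.05. Standard errors were derived from the F statistic (log2 fold change divided by its square root). CPM and RPKM were computed here with TMM-scaled library sizes. DESeq2 1.42.0 and voom of limma 3.58.1 with quality weights were alternatives, beside other scalings and filters and a length and GC correction. Further alternatives were a replicate block, the mitochondrially encoded genes left out and each library left out. The DESeq2 and voom fits with the near-identical knockout pair merged, and class medians without members that share at least 100 exon bases with the other strand, were chosen after seeing the data. The procedure was tested on simulated counts, with changes placed in genes that were not of low level. There edgeR recovered 8 of 81 changes of 1.5-fold, 19 of 56 of 2-fold and 54 of 63 of 4-fold, with 4 false calls in 14766 genes.

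The members, their classes and the gene lists were chosen with earlier results of these data known. Library values are given for called kinesins, for the 4 mitotic and 4 transport kinesins of highest RPKM, for uncalled ones whose groups do not overlap and whose log2 fold change is 1 or more in size, and for Kifc1 and Kifc5b. Partners named are those called, with Cenpe, Kifap3, Klc1 and Racgap1. Promoters are shown for Kif18b and Kif3a. Others were named after their values were seen. One further marker list is not reported here.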

Additional observations from a re-analysis of the deposited data

How the results depend on the processing

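The deviations of same-numbered libraries from their group means correlated at -0.004, 0.009 and 0.006, so no pairing by replicate number was seen. Knockout 1 and 2 were nearly alike, so these correlations are not separate checks and cannot exclude a pairing. With the replicate number as a block 1 kinesin was lower, 371 genes were lower and 312 higher, and the mitotic median, transport median and their difference were -0.45, -0.23 and -0.22. The block changed no kinesin call, ended the calls of Aurkb and Pafah1b1 among partners, and among germ cell markers called Zbtb16 in place of Gfra1. The count of kinesins lower, 1 in the analysis reported, was 6 with library size alone, 6 with DESeq2, 7 with limma-voom, 0 with knockout 1 and 2 merged and 0 to 2 with each library left out, and limma-voom called 2 higher. Genes lower, 413, were 1152 with library size alone, 796 with DESeq2, 1675 with limma-voom, 0 with the pair merged, 263 and 198 with it merged in DESeq2 and limma-voom, and 1 to 468 with each library left out. Genes higher, 300, were 806 with DESeq2, 1090 with limma-voom, 1 with the pair merged and 2 to 414 with each library left out. The mitotic median, -0.47, was -0.75 with library size alone, -0.30 with length and GC removed, -0.32 with length and GC removed beside the replicate block, and -0.56 to -0.30 with each library left out. The transport median, -0.26, was -0.50 with library size alone and -0.30 to -0.20 with each library left out. Their difference, -0.21, moved by less than its SD of 0.15 between libraries in every alternative run.

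Of 664 pairs of a kinesin and an alternative, 35 had the opposite sign, in 14 of 35 kinesins and none of them called. With each library left out in turn, 10 of them took both signs: Kif13a from -0.20 to 0.18, Kif14 from -0.60 to 0.15, Kif1c from -0.54 to 0.07, Kif21b from -0.31 to 0.02, Kif24 from -0.36 to 0.43, Kif26a from -0.28 to 0.43, Kif6 from -0.61 to 0.24, Kif9 from -0.32 to 0.10, Kifc2 from -0.41 to 0.11 and Kifc3 from -0.13 to 0.68. With limma-voom Kif13a was 0.19, Kif19a 0.40, Kif5a 0.09 and Kifc3 -0.10. With library size alone Kif20b was -0.20, Kif24 -0.19, Kif26a -0.14 and Kif5c -0.01. With length and GC removed, Kif13a was 0.13, Kif21b 0.07 and Kif6 0.03, and with the replicate block added Kif13a was 0.10 and Kif21b 0.05. With the pair merged, Kif24 was -0.15, -0.15 and -0.32 and Kif6 was 0.16, 0.16 and 0.02 in edgeR, DESeq2 and limma-voom. The causes were not tested. Members with few reads had the widest standard errors.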
